A study of Homo sapiens with 6 samples.

Results

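The RASSF genes encode proteins with a RAS association domain, and *RASSF1* to *RASSF10* make up the family in human. The 10 members were taken by their NCBI Gene numbers from the 29806 gene numbers in the deposited counts. The family was chosen by the rise of 2 of its members, *RASSF2* and *RASSF6*, in PACT KO cells, so the change of these 2 genes is given as a description without a test, and the other 8 came with the family name. The counts come from RNA-seq of polyA RNA from 3 dishes of LNCaP parental cells (genotype wild type) and 3 dishes of LNCaP PACT KO cells (genotype PACT knockout), lysed 48 h after plating in RPMI medium with fetal bovine serum. LNCaP is a prostate cancer cell line that responds to androgen, and PACT, encoded by *PRKRA*, is an RNA-binding protein that activates the kinase PKR and takes part in microRNA processing. PACT KO cells were made by transfection of a plasmid with a guide RNA and Cas9, sorting for GFP and growth of single colonies. The supplement names 1 LNCaP clone for the experiments after its sequencing, so the PACT KO dishes stand for 1 clone, and the methods describe no cloning of the parental cells. An effect of the knockout and a trait of that clone cannot be told apart.

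RASSF proteins have no known enzyme activity and act as scaffolds. The C-terminal group, *RASSF1* to *RASSF6*, carries the RAS association domain near the C-terminus, followed by a SARAH domain that binds the Hippo kinases MST1 and MST2. The N-terminal group, *RASSF7* to *RASSF10*, carries it near the N-terminus and has no SARAH domain. Several members, *RASSF1* and *RASSF2* among them, are known as tumour suppressors that are silenced by promoter methylation in prostate and other tumours. Methylation was not measured in these data.

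The 250 bases before a RefSeq start site (GRCh38.p14) are shown for the 2 genes that chose the family and for *RASSF3*, its most abundant member, to show how many CG dinucleotides, the sites of DNA methylation, these windows hold. Capitals mark each CG, and all 3 sequences read 5′ to 3′ on the strand of the gene.
RASSF2: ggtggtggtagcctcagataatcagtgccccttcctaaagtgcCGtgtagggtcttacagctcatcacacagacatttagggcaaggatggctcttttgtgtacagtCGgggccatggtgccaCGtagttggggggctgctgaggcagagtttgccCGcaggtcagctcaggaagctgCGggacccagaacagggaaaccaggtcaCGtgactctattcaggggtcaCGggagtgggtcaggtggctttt
RASSF6: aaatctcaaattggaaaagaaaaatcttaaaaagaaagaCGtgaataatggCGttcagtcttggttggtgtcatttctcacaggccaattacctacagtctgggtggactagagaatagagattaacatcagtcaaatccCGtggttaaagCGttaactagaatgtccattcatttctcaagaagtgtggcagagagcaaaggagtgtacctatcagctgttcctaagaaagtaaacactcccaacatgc
RASSF3: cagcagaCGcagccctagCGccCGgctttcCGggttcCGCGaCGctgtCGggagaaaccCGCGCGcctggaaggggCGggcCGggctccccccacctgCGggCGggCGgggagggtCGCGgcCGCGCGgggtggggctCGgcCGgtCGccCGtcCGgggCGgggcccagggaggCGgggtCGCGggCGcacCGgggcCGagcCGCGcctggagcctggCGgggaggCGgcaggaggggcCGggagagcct

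The *RASSF2* window is chr20:4815148-4815397 on the minus strand, within an intron and 8461 bases inside the outermost start of the gene. The *RASSF6* window, chr4:73620632-73620881 on the minus strand, lies just before the outermost start and in no annotated gene. The *RASSF3* window is chr12:64610245-64610494 on the plus strand, 103531 bases inside the annotated gene and in an intron of it. It held 38 CG, against 7 in the *RASSF2* window and 4 in the *RASSF6* window. Across 35116 promoters of the same length the median was 11 CG, and 93.9% held at least 1. The *RASSF3* window had more CG than 96.7% of promoters, whereas 41.1% of promoters had fewer than the *RASSF2* window and 29.3% fewer than the *RASSF6* window. The table holds start sites for 7 of the 10 members, and of *RASSF2* only this internal one. For *RASSF6* it gives a further start site 195 bases inside the gene, with 13 CG before it. The window of *RASSF1* had 25 CG, but it precedes a start site 3386 bases inside the gene, and the outermost promoter of *RASSF1* is not in the table. At their outermost start sites *RASSF4* had 32 CG, *RASSF5* 23 and *RASSF9* 5. A further *RASSF5* start site, 49633 bases inside the gene, had 10 CG before it. Which start sites LNCaP cells use is not shown by gene counts.

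Each library held 19930060 to 24940838 reads on genes. For *PRKRA*, number 8575, the parental replicates gave 882, 809 and 866 reads and the PACT KO replicates 291, 331 and 243, a log2 fold change of -1.57 (standard error 0.07), so its mRNA was reduced but present in the cells labelled PACT knockout. All 8 markers of luminal prostate cells were detected in both groups, with a summed level of 3572 to 3606 CPM (read counts relative to the library total after TMM scaling) in the parental libraries and 3609 to 3662 CPM in those of PACT KO. At an FDR (the p-value of edgeR's quasi-likelihood test, adjusted over all genes by Benjamini-Hochberg) under 0.01, 2 genes of this list were higher and 4 lower, *KLK3* and *KLK2* by more than 1.5-fold, where 15.3% of all 14462 genes tested were higher and 18.8% lower. Summed over 4 basal markers the level was 1.33 to 1.67 CPM in the parental and at most 0.0989 CPM in the PACT KO libraries. The parental level came mostly from *DSC3*, a desmosome gene. It had 37, 28 and 31 reads in the parental and 0, 2 and 0 in the PACT KO replicates. *KRT5* was at 0 in every library and *KRT14* and *TP63* at 4 or fewer reads. The highest PACT KO sum, in replicate 3, came from 1 read each of *KRT14* and *TP63*. For 6 fibroblast markers the summed level was 33.3 to 38.3 CPM in the parental and 45.4 to 50.9 CPM in the PACT KO libraries. Nearly all of it came from *COL1A1* and *COL3A1*, with *COL1A2* at 0. The 4 endothelial markers summed to 24.4 to 27.0 and 15.6 to 17.7 CPM, nearly all from *VWF*, with *PECAM1* and *CDH5* at 0. Their part in the results below was not tested.

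*RASSF2*, NCBI Gene number 9770, at chr20:4780023-4823608 (GRCh38.p14), encodes a C-terminal member that binds MST kinases and is known to favour apoptosis. Parental replicates 1, 2 and 3 gave 244, 224 and 220 reads, and the same replicates of PACT KO gave 626, 630 and 551. After scaling this was 10.7, 10.4 and 8.88 CPM against 25.3, 25.9 and 27.3 CPM. Every PACT KO library thus lay above every parental library, with a gap wider than the spread within either group. The groups also did not overlap for 52.2% of all genes tested. Since this contrast chose *RASSF2*, its separation is a description only. The mean level was 10.00 ± 0.983 CPM in LNCaP parental cells against 26.2 ± 0.984 CPM after PACT knockout (SD, n = 3 each). The fitted change was 2.62-fold, with a 95% interval of 2.34 to 2.93. In a bulk sample, more cells with the RNA and more RNA per cell cannot be told apart.

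*RASSF6*, number 166824, at chr4:73571550-73620631, encodes a C-terminal member known to bind MST2 and the BAX-activating protein MOAP1. Its reads were few, 16, 15 and 11 in LNCaP parental and 29, 30 and 26 in PACT KO replicates. That is 0.705, 0.694 and 0.444 CPM against 1.17, 1.23 and 1.29 CPM, so the groups did not overlap although the gene is scarce in both. The fitted change was 2.01-fold, and at this depth its 95% interval ran from 1.34 to 3.01. The intervals of *RASSF2* and *RASSF6* and the separation of their libraries take no account of their choice by this same contrast. They are not used as a test. The fitted folds of *RASSF2* and *RASSF6* lay above 1.5, and the next member, *RASSF4*, was at 1.27. Of all genes tested, 3.07% were at least 1.5-fold higher at an FDR under 0.01, and nothing is read from this for the 2 members, since the same contrast chose them.

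**Figure D1:**
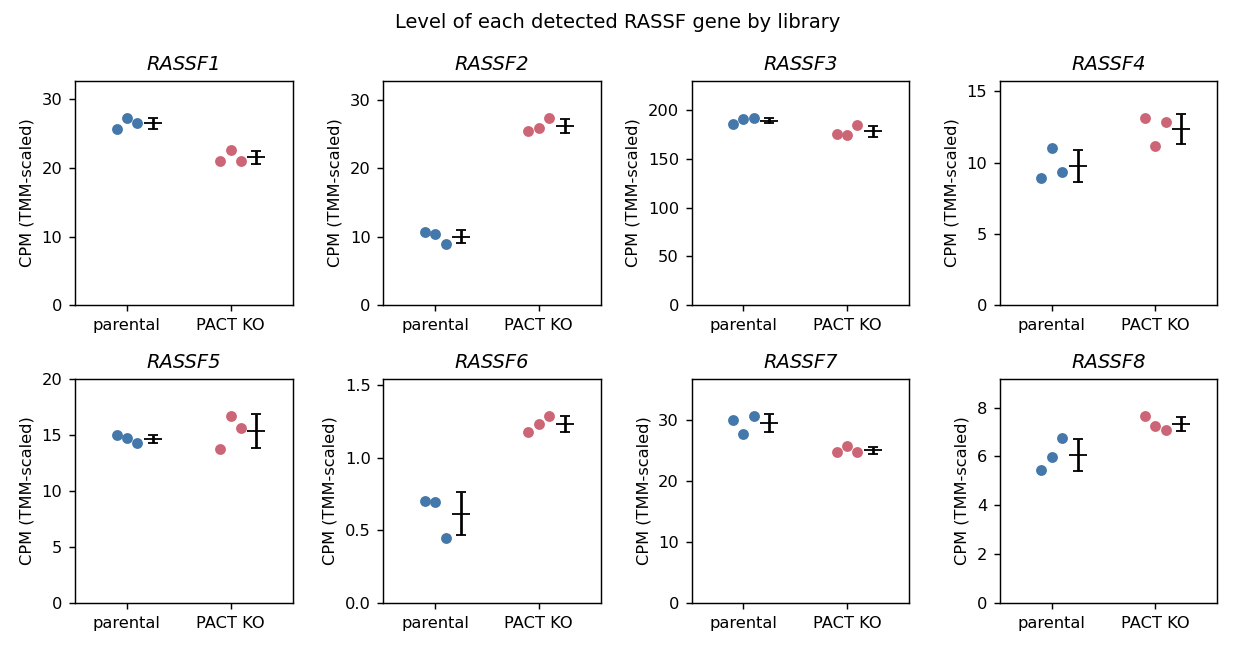
Level of the 8 detected RASSF genes in each library, in CPM with TMM scaling on a linear axis from 0, with blue points for LNCaP parental and red points for PACT KO libraries and black marks for mean and SD (n = 3). RASSF2 lay at 8.88 to 10.7 CPM in parental and 25.3 to 27.3 CPM in PACT KO libraries, and RASSF5 is the gene whose groups overlapped.

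Of the 8 other members, 6 had enough reads to be tested, and at an FDR under 0.01 there was 1 higher member and there were 2 lower ones. Among all tested genes, 15.3% were higher and 18.8% lower by the same rule. None of the 6 reached 1.5-fold. The groups did not overlap for 5 of the 6, against 52.2% of all genes tested. Their median log2 fold change was -0.01, and that of all genes tested was 0.00. With 3 libraries against 3, an exact permutation test of a single gene cannot give a p under 0.10, so the calls rest on the fit across all genes.

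*RASSF4* was the member called higher. It lies at chr10:44959802-44995891, has the number 83937, and encodes a C-terminal member that also binds MST1. It had 203, 238 and 232 reads in LNCaP parental and 324, 272 and 260 in PACT KO replicates. The levels were 8.94, 11.01 and 9.37 CPM against 13.1, 11.2 and 12.9 CPM, so that the highest parental and the lowest PACT KO library nearly met. Its change was 1.27-fold (95% interval 1.11 to 1.45, edgeR FDR = 0.00327). This call did not hold in every setting, as the adjusted p was 0.0195 with DESeq2, and the edgeR FDR was 0.0313 or 0.0185 when LNCaP parental replicate 1 or 3 was left out and 0.0119 when PACT KO replicate 1 was.

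*RASSF1*, number 11186, at chr3:50329788-50340836, was lower in PACT KO cells. Its isoform RASSF1A is known to bind microtubules and MST kinases and to restrain the cell cycle, but gene counts do not separate it from the shorter isoform RASSF1C, which starts inside the gene. Reads numbered 584, 589 and 657 in LNCaP parental and 518, 552 and 424 in PACT KO replicates, which was 25.7, 27.2 and 26.5 CPM against 21.0, 22.7 and 21.0 CPM. All 3 PACT KO libraries lay below all parental libraries. The level dropped by 18.6% (log2 fold change -0.30, standard error 0.06, edgeR FDR = 1.98e-04).

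*RASSF7*, number 8045, at chr11:560970-564025, encodes an N-terminal member that associates with microtubules and was also lower. Its levels were 30.1, 27.8 and 30.7 CPM in LNCaP parental and 24.7, 25.7 and 24.8 CPM in PACT KO replicates, without overlap. The log2 fold change was -0.24 (standard error 0.06, edgeR FDR = 0.00110). Without LNCaP parental replicate 1 the FDR was 0.0124, and without LNCaP parental replicate 3 it was 0.0204, both above the threshold of 0.01 and so not called.

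The remaining 3 tested members were not called. *RASSF3*, number 283349, at chr12:64506964-64697564, encodes a short C-terminal protein. It had 186, 190 and 191 CPM in LNCaP parental and 175, 174 and 184 CPM in PACT KO replicates, with every PACT KO library below every parental library. The difference was small, with a log2 fold change of -0.09 (95% interval -0.15 to -0.03, edgeR FDR = 0.0113), and it was called with limma-voom (adjusted p = 0.00919) and without PACT KO replicate 3 (edgeR FDR = 0.00546). *RASSF8*, number 11228, at chr12:25958232-26079889, encodes an N-terminal protein of cell junctions. Its level was 5.46, 5.97 and 6.74 CPM against 7.65, 7.24 and 7.07 CPM, a log2 fold change of 0.27 (95% interval 0.06 to 0.49, edgeR FDR = 0.0350). *RASSF5*, number 83593, at chr1:206507531-206589448, encodes the RAS and RAP1 effector also named NORE1 or RAPL. It had 14.97, 14.7 and 14.3 CPM in LNCaP parental and 13.7, 16.7 and 15.6 CPM in PACT KO replicates. These groups overlapped, and the log2 fold change was 0.07 with a 95% interval of -0.10 to 0.24.

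*RASSF9*, number 9182, at chr12:85800703-85836409, binds the peptide-amidating enzyme PAM, and *RASSF10*, number 644943, at chr11:13009316-13012119, is an N-terminal member often methylated in tumours. Both had 0 reads in all 6 libraries. A count of 0 allows up to 3 reads, or 0.120 to 0.151 CPM depending on the library, for counting error only.

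**Figure D2:**
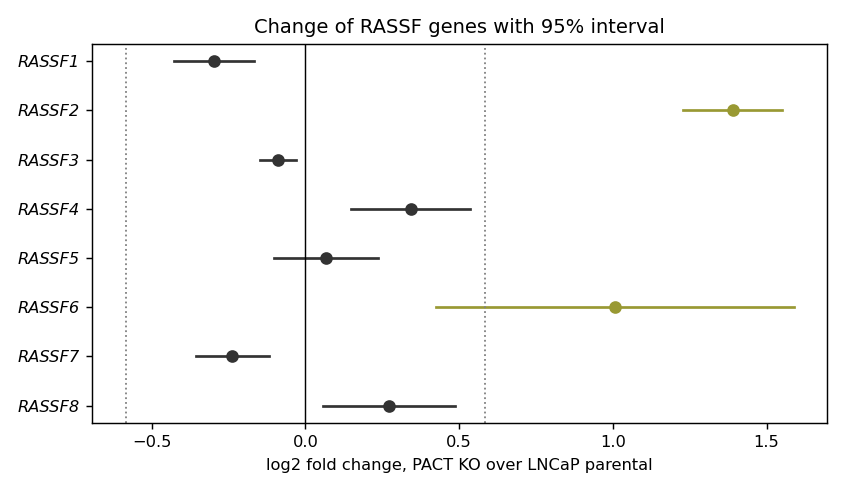
Log2 fold change of each tested RASSF gene, PACT KO over LNCaP parental, with its 95% interval from edgeR, where dotted lines mark 1.5-fold and the 2 genes that chose the family are in olive. RASSF2 and RASSF6 lie beyond 1.5-fold, and the other 6 lie between -0.30 and 0.34. The intervals in olive take no account of the choice of these 2 genes by this contrast.

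Between genes, levels were compared per kilobase of exon, using the summed exons of each gene in GENCODE release 29. In LNCaP parental cells *RASSF3* was highest at 44.7 ± 0.690 CPM per kb (SD, n = 3), followed by *RASSF7* at 11.9 ± 0.615, *RASSF1* at 7.19 ± 0.207 and *RASSF5* at 2.10 ± 0.0523. *RASSF2* ranked 5 of 8 at 1.74 ± 0.171, before *RASSF4* at 1.03 ± 0.115, *RASSF8* at 0.795 ± 0.0848 and *RASSF6* at 0.0926 ± 0.0222 CPM per kb. In PACT KO cells *RASSF2* stood at 4.54 ± 0.171 CPM per kb, at rank 4, above *RASSF5* at 2.2 ± 0.216 and below *RASSF1* at 5.85 ± 0.271. No 2 neighbours in either order overlapped between their libraries. With the longest transcript of each gene in place of all exons, a choice made after seeing the data, *RASSF2* ranked 6 in LNCaP parental cells, below *RASSF4*, and again 4 in PACT KO cells. By this length *RASSF4* and *RASSF5* also changed places in PACT KO cells, at 2.85 ± 0.241 and 2.75 ± 0.270 CPM per kb. Among 13106 tested genes with an exon length, the level per kb of *RASSF2* was above 23.7% of genes in LNCaP parental and above 41.6% after PACT knockout. For *RASSF3* these shares were 92.9% and 92.7%, and for *RASSF6* 1.79% and 4.90%.

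On the per-kb scale, *RASSF2* made up 2.498% ± 0.270 of the RASSF level in LNCaP parental and 6.76% ± 0.120 in PACT KO cells (SD, n = 3). *RASSF3* held 64.3% ± 0.436 and 62.6% ± 0.958, so the same gene dominated the family in both groups. *RASSF1* held 10.4% ± 0.259 and 8.71% ± 0.470, and *RASSF7* 17.1% ± 0.867 and 14.98% ± 0.474. In reads, the 8 detected genes summed to 286 ± 3.26 CPM in LNCaP parental and 287 ± 6.23 CPM in PACT KO cells, with overlapping libraries. Without *RASSF3* the sum was 97.1 ± 0.580 CPM and 109.1 ± 2.09 CPM, a difference that includes the rise of *RASSF2* for which the family was chosen.

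Genes next to a member or overlapping it were compared in the same fit. Around *RASSF2*, the nearest 3 tested genes on each side moved both ways. On the side of lower coordinates *RNF24* had a log2 fold change of -0.25, *SMOX*, which encodes spermine oxidase, one of 0.28, and *PRNP*, which encodes the prion protein, one of -0.11. On the other side, *SLC23A2*, a vitamin C transporter, had 0.32 (standard error 0.06), *TMEM230* 0.05, and *PCNA*, the sliding clamp of DNA replication, -0.49 (standard error 0.03). All but *TMEM230* passed an edgeR FDR of 0.01, where 15.3% of all genes tested were higher and 18.8% lower. None of these neighbours changed by 1.5-fold. Around *RASSF6*, *ALB* had 6, 7 and 8 reads in LNCaP parental and 20, 25 and 20 in PACT KO replicates. That is 0.304 CPM against 0.942 CPM on average (log2 fold change 1.61, standard error 0.37). With so few parental reads *ALB* passed the filter only through the PACT KO libraries, so its change is given without a test. The other neighbours *COX18*, *ANKRD17*, *MTHFD2L*, *PARM1* and *RCHY1* were not called, with log2 fold changes between -0.02 and 0.21.

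The strand setting of the counting is not given in the sources used here, so where a member and an antisense gene overlap, their reads may not be separable. *RASSF1-AS1* had 54 to 87 reads in the parental and 60 to 101 reads in the PACT KO libraries and was not called (log2 fold change 0.05, edgeR FDR = 0.829). *RASSF8-AS1* had 10 to 18 and 13 to 23 reads (log2 fold change 0.54, standard error 0.34, edgeR FDR = 0.198). *DEPP1*, within *RASSF4*, had 32 to 64 and 46 to 68 reads (log2 fold change 0.36, standard error 0.20, edgeR FDR = 0.138). *EIF2D*, a translation factor gene that overlaps *RASSF5*, had a log2 fold change of 0.03 (edgeR FDR = 0.660). *ZNF22-AS1*, also at *RASSF4*, had 6 or fewer reads in each library, and *MIR548Z* and *MIR548C*, within *RASSF3*, were listed at 0.

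Genes related to RASSF function or regulation were counted in 5 lists with 87 different genes, 78 of which were tested. Of these, 21 were higher and 15 lower at an FDR under 0.01, and their median log2 fold change was 0.03, where 15.3% of all genes tested were higher and 18.8% lower and the median was 0.00. All 30 genes of the Hippo kinase cascade were tested, and 7 were higher and 6 lower, against 15.3% and 18.8% of all genes, with a median of 0.05. *STK4* and *STK3*, which encode the kinases MST1 and MST2 that bind the SARAH domain, were not called. *STK3* had 70.9, 71.6 and 75.3 CPM against 73.8, 78.0 and 67.5 CPM, with a 95% interval of 0.952-fold to 1.07-fold. *STK4* had 38.3, 37.4 and 35.2 CPM against 36.7, 38.4 and 37.0 CPM, with an interval of 0.946-fold to 1.08-fold. In both the libraries of the groups overlapped.

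Further down the cascade, *YAP1*, the coactivator that the pathway restrains, was 1.06-fold to 1.15-fold higher by its 95% interval (138.5 ± 2.80 against 152.6 ± 3.21 CPM, SD, n = 3, edgeR FDR = 1.87e-04). Its paralog *WWTR1*, which encodes TAZ, was scarce, at 1.01, 1.11 and 0.969 CPM against 1.70, 1.65 and 1.83 CPM (log2 fold change 0.74, standard error 0.22, edgeR FDR = 0.00579). *TEAD2* and *TEAD1*, their DNA-binding partners, rose by 0.45 (standard error 0.05) and by 0.28 (standard error 0.03) on the log2 scale. *AMOT* and *VGLL4*, which hold back YAP1, rose as well, with 0.33 and 0.23. *TEAD4* and *AMOTL1*, named after their values were seen, fell by 0.68 and 0.59 on the log2 scale and were the members of this list that fell by at least 1.5-fold. Among 22 genes known as targets of YAP1 and TAZ, 13 were tested, of which 3 were called, all of them higher, against 15.3% higher of all genes, with a median of -0.06. At an unadjusted p under 0.05, *CCN1*, *IGFBP3* and *ARHGEF17* were lower, with edgeR FDRs of 0.0403, 0.0324 and 0.0105. The 3 higher ones were *CCDC80* (log2 fold change 0.52), *GADD45A* (0.32) and *DOCK5* (0.20). Of the 9 that were not tested, *CCN2*, *AXL*, *FOXF2* and *RBMS3* had no reads in any library. The others had 10 or fewer reads in each library. Among them *F3* had 10, 9 and 10 reads in LNCaP parental and 2, 2 and 3 in PACT KO replicates. *FJX1* had 2, 3 and 3 against 1, 0 and 1, also lower without overlap. The groups overlapped for *ANKRD1*, *NT5E* and *TGFB2*.

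In the list of RAS family GTPases, drawn up whether or not a RASSF protein is known to bind them, all 15 genes were tested. Of these, 6 were higher and 1 lower, against 15.3% and 18.8% of all genes, with a median log2 fold change of 0.08. None reached 1.5-fold. *MRAS* rose by a log2 fold change of 0.40 (standard error 0.06), *RIT1* by 0.24 and *NRAS* by 0.17, whereas *HRAS* fell by 0.21 on the log2 scale.

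The 13 genes for other binding partners were all tested, and 2 were higher and 6 lower, against 15.3% and 18.8% of all genes, with a median of 0.00. *MOAP1*, a partner of RASSF1A and RASSF6, was not called, with an interval of 0.942-fold to 1.07-fold. *PAM*, a partner of RASSF9, was not called either, at 4.80, 6.48 and 5.81 CPM against 6.88, 6.91 and 6.48 CPM (edgeR FDR = 0.0681). The genes with the smallest p were lower, namely *MAP1B*, for a microtubule-associated protein, at 825 ± 21.5 against 583 ± 7.10 CPM, the mitotic genes *CDC20* and *AURKA* with log2 fold changes of -0.62 and -0.54, and *DAXX* with -0.27.

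Of 10 genes that write, read or remove DNA methylation, 3 were higher and 2 lower, against 15.3% and 18.8% of all genes, with a median of -0.02. *DNMT1*, the maintenance methyltransferase, had 168, 173 and 175 CPM in LNCaP parental and 135, 132 and 136 CPM in PACT KO replicates, a fall of 0.36 on the log2 scale (standard error 0.03, edgeR FDR = 1.08e-12). *UHRF1*, which brings DNMT1 to replicated DNA, had 23.4, 25.6 and 23.9 CPM against 14.4, 15.2 and 15.1 CPM, a fall of 0.71 (standard error 0.07, edgeR FDR = 1.75e-10). *TET1* and *TET2*, which encode enzymes that oxidise methylcytosine, rose by 0.41 (standard error 0.10) and by 0.15 (standard error 0.04) on the log2 scale. Both genes of maintenance methylation are known to be highest in S phase. The paper measured the cell cycle of LNCaP parental and PACT KO cells by flow cytometry in other dishes. It reports that entry into S phase was blocked in PACT KO cells. Whether the change of *DNMT1* and *UHRF1* follows the share of cells in S phase was not tested with these counts. Whether the changes of these enzymes bear on the level of *RASSF2* or *RASSF6* was not tested either.

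*RASSF2* and *RASSF5* are known to be expressed in leukocytes, so leukocyte markers were read in the same libraries. Of 11 markers, *CD3E* and *CD53* had no reads, and 10 had too few to be tested. *ITGB2* had 1.54, 1.99 and 1.66 CPM in LNCaP parental and 2.79, 2.67 and 2.62 CPM in PACT KO replicates (log2 fold change 0.65, standard error 0.17, edgeR FDR = 0.00170). The summed level of the list was 1.89 to 2.64 CPM and 3.17 to 3.40 CPM, most of it from *ITGB2*, and *PTPRC*, the common leukocyte antigen, had 3 reads over the parental libraries and none in those of PACT KO. Per kilobase of exon, *ITGB2* was at 0.254 and 0.397 CPM, and *RASSF2* at 1.74 and 4.54.

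The genes most like *RASSF2* across the 6 libraries, by Pearson's r of log2 CPM, were *LZTS3*, *TP53I11*, *MYO1D*, *CLSTN3* and *PCOTH*, each with r = 0.999. Their changes were smaller than that of *RASSF2*, with log2 fold changes of 0.55, 0.31, 0.29, 0.28 and 0.54. The 6 points form 2 groups, so such values mostly restate the group difference, and r was over 0.95 for 877 of the 13174 genes that averaged 1 CPM or more. Within the family, r with *RASSF2* was 0.83 for *RASSF4*, 0.75 for *RASSF8*, 0.39 for *RASSF5*, -0.84 for *RASSF3*, -0.94 for *RASSF7* and -0.96 for *RASSF1*.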

How the data were processed

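The authors deposited whole-number counts of reads per NCBI Gene number for 6 libraries, not normalized. The submitters' processing notes name the build hg38 and the tools bcl2fastq 2.20.0.422, STAR 2.5.3a, StringTie 1.3.3 and featureCounts 1.5.3. The strand setting and annotation are not given in the sources used here. A row without a gene number, 0.0688% to 0.0708% of counts, was left out. Symbols and positions came from RefSeq (GRCh38.p14), which named 27540 of 29806 gene numbers.

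Genes were kept by filterByExpr, scaled by TMM and tested with glmQLFit and glmQLFTest (2-sided) in edgeR 4.0.16 (R 4.3.3), as the methods name edgeR and TMM, with an FDR under 0.01 and 1.5-fold as thresholds. Standard errors were derived from the F statistic and the log2 fold change. CPM use TMM factors. The fit was tested on simulated data first. Replicates are dishes, and p-values measure the spread between dishes. Pairs of replicates differed by more than sampling noise (variance ratio 1.55 to 3.63, where noise alone gives 1). Intervals of 95% come from the fit. Alternatives were 3 scalings, 2 filters, DESeq2 1.42.0, limma-voom (limma 3.58.1), the replicate number as a block, an FDR of 0.05 and each library left out. Another gene length was added after seeing the data.

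The members and all lists (Hippo kinase cascade, YAP/TAZ targets, RAS family GTPases, binding partners, DNA methylation enzymes, and luminal, basal, leukocyte, endothelial and fibroblast markers) were chosen with earlier results of these data known, the lists from general knowledge. Named genes are every member, up to 4 genes per partner list by smallest p, some partners fixed by name (STK3, STK4, YAP1, WWTR1, DNMT1, UHRF1, MOAP1, PAM), genes next to RASSF2 and RASSF6 or overlapping a member, the 5 genes most like RASSF2, and PRKRA. TEAD4, AMOTL1, CCN1, IGFBP3, the YAP/TAZ targets that were not tested and the named marker genes were added after their values were seen.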

Additional observations from a re-analysis of the deposited data

How the results depend on the processing

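Among the members other than RASSF2 and RASSF6, 1 was called higher and 2 lower. With an FDR of 0.05 as the threshold 2 were higher (RASSF4 and RASSF8), and with DESeq2 0 were higher, where 1 had an unadjusted p under 0.05. Leaving out each library, 0 to 1 were higher and 1 to 3 lower. The count of higher members was 0 without LNCaP parental replicate 1, LNCaP parental replicate 3 or PACT KO replicate 1, where 1, 2 and 1 had an unadjusted p under 0.05 in edgeR. The call of RASSF1 held under all 15 alternatives, with an adjusted p of 6.51e-05 to 0.00355. RASSF5 had a log2 fold change of -0.0012 without PACT KO replicate 2, a change of sign, and ranged up to 0.1506 with other libraries left out. RASSF2 ranged from 1.31 to 1.45 and RASSF6 from 0.81 to 1.12 on the log2 scale over these alternatives. Over the partner lists, 21 genes were higher and 15 lower, with 13 higher under DESeq2 and 16 to 19 higher and 11 to 16 lower when a library was left out. The cause of these shifts was not tested.

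The replicate numbers were not taken to pair the libraries, as no label ties a number to shared material and deviations of same-numbered libraries correlated at -0.13, 0.06 and -0.14. With the replicate block, 1 member was higher and 2 lower, and 19 genes of the partner lists were higher and 14 lower. No scaling moved the median log2 fold change of all genes by over 0.03. Depth limits RASSF6, which had 11 to 30 reads a library, and gene counts do not separate isoforms.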
